A study of Homo sapiens with 30 samples.

Results

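The clustered histone genes are the genes of H1, H2A, H2B, H3 and H4 that lie in the HIST1, HIST2, HIST3 and HIST4 clusters. They were taken as all rows of the deposited RNA-seq table whose gene symbol begins with HIST1H, HIST2H, HIST3H or HIST4H, which gave 73 of 26255 gene rows. HIST1 holds 56 of them, HIST2 13, HIST3 3 and HIST4 1, and by type they are 6 H1, 18 H2A, 20 H2B, 14 H3 and 15 H4 genes. The 4 lines compared are of RWPE1, an immortalised epithelial cell line from normal human prostate, and the study asks how the ETS transcription factor ERG and active AKT act alone and together. RWPE1-Vector carried both empty retroviruses, pQCXIH and pBabe-puro. RWPE1-ERG carried pQCXIH-ERG, coding for uniprot isoform 1, with empty pBabe-Puro. RWPE1-mAKT carried myristoylated, constitutively active AKT in pBabe-Puro with empty pQCXIH, and RWPE1-ERG+mAKT carried both transgenes. All 4 lines were cultured in puromycin and hygromycin. The H3K27me3 ChIP described near the end also covers RWPE1 cells with ERG S96E, a phosphomimetic mutant of ERG. The lines of the H3K27me3 and ERK2 ChIP list pQCXIH constructs alone. RNA was selected on oligo(dT) beads in 3 libraries per line, 12 in all, and the table gives 1 FPKM (fragments scaled to transcript length and to mapped fragments) per line, pooled by the authors over its 3 libraries. No spread between replicates can therefore be given for any RNA level below, no difference between lines was tested, and differences are described by size only. Library depth is unknown for the RNA.

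These genes encode the histones that package newly replicated DNA, and most of them are transcribed in S phase. Their mRNAs are an exception among protein-coding messages: the 3′ end is formed by cleavage after a conserved stem-loop, bound by the stem-loop binding protein SLBP, and carries no poly(A) tail. Some of the genes also give polyadenylated transcripts that run past the stem-loop to a downstream signal. Replacement histones, whose genes lie outside the clusters, are mostly made from ordinary polyadenylated mRNA throughout the cell cycle. A level of a clustered histone gene in RNA selected for poly(A) is therefore not the level of its mRNA as a whole.

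The transgenes followed the labels. ERG had an FPKM of 0.264 in RWPE1-Vector, 358 in RWPE1-ERG, 0.435 in RWPE1-mAKT and 328 in RWPE1-ERG+mAKT. AKT1 had 58.7, 64.2, 156 and 281 in the same order. The 6 basal epithelial markers examined were all above 1 FPKM in the 4 lines, with KRT5 at 3126 in RWPE1-Vector and 1170 in RWPE1-ERG. In RWPE1-ERG over vector, 2 of the 6 were past 2-fold lower and 1 was past 2-fold higher. Of the luminal markers, KLK3 was listed at 0 in all lines, whereas KRT8 was at 622 in RWPE1-Vector and 1769 in RWPE1-ERG. Of the fibroblast, endothelial and leukocyte markers only COL1A1, CD68 and, in RWPE1-ERG+mAKT, CD14 reached 1 FPKM, and PTPRC, the defining leukocyte marker, was at 0.00391 or below. The part of the keratin differences in the histone differences was not tested.

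The stem-loop was searched in the hg19 reference, because transcripts cut at it carry no tail. Of the 73 genes, 70 were matched to a GENCODE gene and 67 had a coding sequence, each in 1 exon. A stem-loop of 16 bases was present within 300 bases after the stop codon in 64 of the 67, at 22 to 67 bases from it with a median of 36. Among 20109 windows of the same length after other coding sequences, 0.204% held such a stem-loop. It was not found for HIST1H3E, HIST1H2BI and HIST1H4L. The 64 genes had 7 distinct stem-loops. The line for each shows the gene with the highest FPKM that carries it, on the transcribed strand with 5 bases to either side and the stem-loop in capitals.
HIST1H1C: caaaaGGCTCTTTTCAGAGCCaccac
HIST1H4H: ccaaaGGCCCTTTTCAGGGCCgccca
HIST1H2BK: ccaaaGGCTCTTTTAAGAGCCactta
HIST1H4K: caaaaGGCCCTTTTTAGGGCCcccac
HIST1H2AG: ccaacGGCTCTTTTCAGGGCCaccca
HIST2H2AC: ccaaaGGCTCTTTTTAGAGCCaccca
HIST1H2AK: aaaaaGGTTCTTTTCAGAGCCaccta

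The first was carried by 39 genes of the types H1, H2A, H2B and H3. The second and the fourth were carried by 9 and 4 H4 genes, and the third by 9 genes of which 4 were H2B. Each of the last 3 was found in 1 H2A gene. In hg19 the stem-loop of HIST1H1C lies at chr6:26055972-26055987 on the minus strand, that of HIST1H2BK at chr6:27114145-27114160 on the minus strand and that of HIST1H4H at chr6:26285359-26285374 on the minus strand. The loci in the authors' table end with it: of 60 loci whose end could be compared, 55 ended 1 to 10 bases past the stem-loop, with a median of 6 bases. Sequence more than 10 bases past the stem-loop thus lies outside the models of those 55. HIST2H2BF, HIST2H2BE and HIST1H2BD have longer models, which end 29196, 1729 and 12746 bases past it.

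The summed FPKM of the 73 genes was 1333 in RWPE1-Vector, 3558 in RWPE1-ERG, 966 in RWPE1-mAKT and 1498 in RWPE1-ERG+mAKT. As a share of the summed FPKM of all genes, it was 0.158%, 0.286%, 0.0994% and 0.156% in the same order. Where 4 FPKM values of a gene follow each other below, they are in this order of the lines. At least 1 FPKM in any line was reached by 58 of the 73, and 56 reached 5 FPKM. The RWPE1-ERG line was the highest of the 4 in 56 of the 58, against 31.9% of the 12670 genes of the table at this level. The RWPE1-mAKT line was the lowest in 50 of the 58, against 12.2% of all genes. The full order, from RWPE1-ERG through RWPE1-ERG+mAKT and RWPE1-Vector down to RWPE1-mAKT, was shown by 45 of the 58, against 4.28% of all genes.

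**Figure D1:**
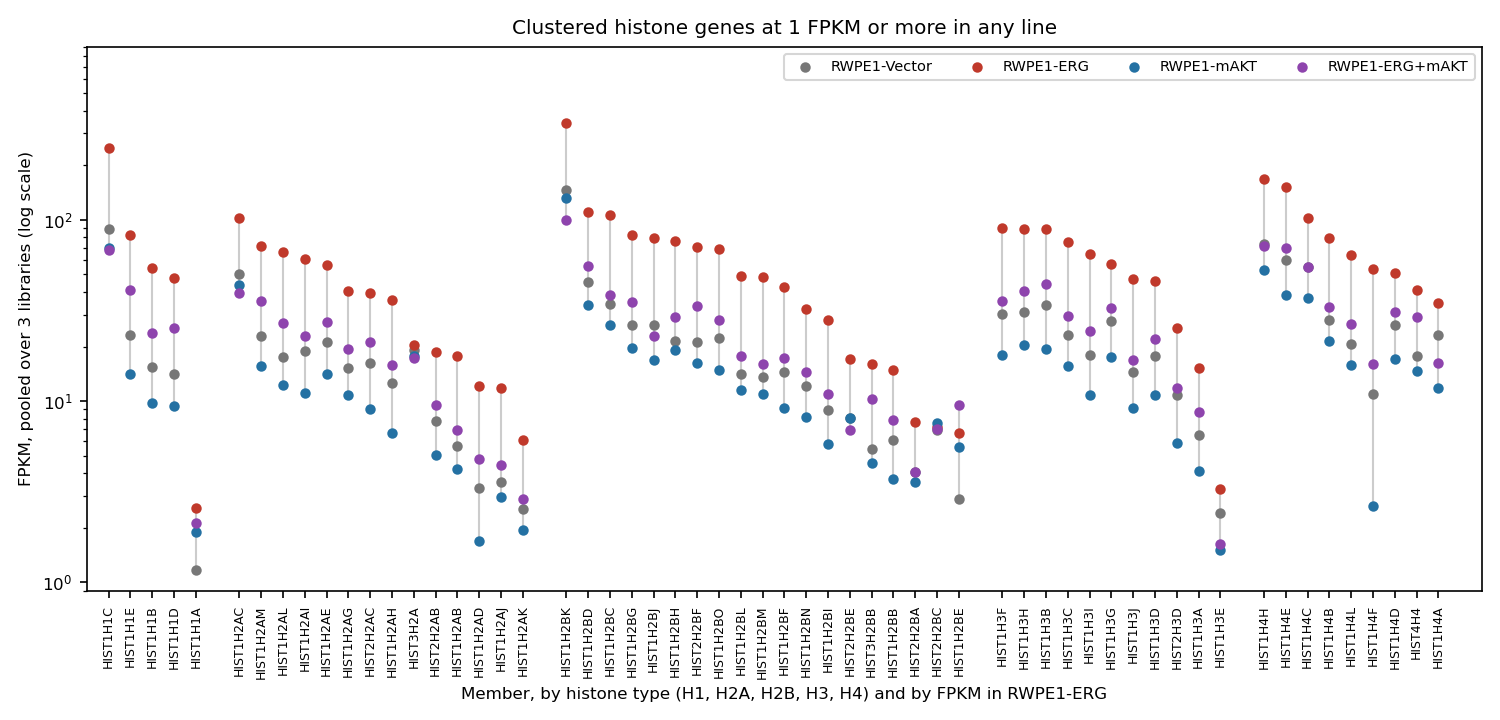
FPKM on a log scale of the 58 clustered histone genes at 1 FPKM or more in any line, grouped by histone type; each point is 1 line, pooled over 3 libraries, and the grey line joins the lowest and highest. The RWPE1-ERG point is the highest for 56 genes, the exceptions being HIST2H2BC and HIST1H2BE.

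HIST1H2BK, an H2B gene, had the highest FPKM of the 73 in each line, at 147 in RWPE1-Vector, 342 in RWPE1-ERG, 132 in RWPE1-mAKT and 99.3 in RWPE1-ERG+mAKT. It made up 11.0% of the histone sum in RWPE1-Vector and 6.63% in RWPE1-ERG+mAKT. HIST1H1C, which encodes a linker histone, had 88.6, 248, 69.9 and 68.6, the second highest in all lines but RWPE1-ERG+mAKT. Both were highest with ERG alone, and lowest where ERG and mAKT were combined. Among the H4 genes, HIST1H4H was the highest, at 73.4, 169, 53.2 and 71.6. HIST1H2AC led the H2A genes, at 50.3, 103, 43.6 and 39.5. Of the H3 genes, HIST1H3F, HIST1H3H and HIST1H3B had similar levels of 89.9, 89.0 and 89.0 in RWPE1-ERG, while HIST1H3E, described below, was far lower. In HIST2 the highest gene was HIST2H2BF, an H2B gene, at 21.2, 70.7, 16.1 and 33.6. In HIST3 it was HIST3H2A and in HIST4 the single gene HIST4H4, an H4 gene with 17.6, 40.9, 14.6 and 29.1.

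ERG alone was compared with vector to ask which genes differ with ERG. The RWPE1-ERG level was past 2-fold above vector for 51 of the 58 clustered histone genes and past 2-fold below it for 0. Of all 12375 genes at 1 FPKM or more in either line, 5.16% were past 2-fold higher and 2.00% past 2-fold lower. All 58 were above vector, a count that was not made for all genes. The median log2 ratio, on the log2(FPKM + 1) scale, was 1.43 for the histones and −0.01 for all genes. Every cluster and every type had a median above 0. HIST1 had 44 of 48 genes past 2-fold with a median log2 ratio of 1.48. HIST2 had 5 of 7 with a median of 1.16, HIST3 1 of 2 with 0.75, and HIST4H4 was past 2-fold with 1.17 on this scale. By type, all 5 H1 genes, 13 of 14 H2A, 17 of 19 H2B, 10 of 11 H3 and 6 of 9 H4 genes were past 2-fold higher, with medians from 1.19 for H4 to 1.69 for H1. The summed FPKM was 2.67 times that of vector. As a share of the summed FPKM of all genes it was 0.286%, against 0.158% in vector.

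For single genes the ratios were computed without a pseudocount. The largest belonged to HIST1H4F, an H4 gene, with a log2 ratio of 2.29. Its FPKM was 10.9 in RWPE1-Vector and 53.3 in RWPE1-ERG, but 2.63 in RWPE1-mAKT. The same gene had the lowest ratio of mAKT over vector, a log2 ratio of −2.05. HIST1H2AL followed with a log2 ratio of ERG over vector of 1.92, from 17.5 to 66.2 FPKM. The linker histone genes HIST1H1E, HIST1H1B and HIST1H1D, at 23.3, 15.5 and 14.1 FPKM in RWPE1-Vector, had 83.0, 54.4 and 47.6 in RWPE1-ERG.

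The other 7 genes were short of 2-fold. HIST1H4A, HIST1H4C, HIST1H4D and the H2B pseudogene HIST2H2BA had log2 ratios of 0.59, 0.90, 0.95 and 0.92, below most other genes but in the same direction. HIST3H2A, HIST2H2BC and HIST1H3E had log2 ratios of 0.10, 0.06 and 0.44. HIST3H2A, an H2A gene, had 19.1, 20.5, 17.8 and 17.4 FPKM. HIST2H2BC, annotated as a pseudogene, had 6.95, 7.24, 7.54 and 7.04. These values were close across the lines, while most other genes spread over more than 2-fold. HIST1H3E, an H3 gene without a stem-loop match that was below the 5 FPKM set for named genes, had 2.41, 3.26, 1.51 and 1.62. The other 2 without a match were past 2-fold: HIST1H2BI went from 8.97 to 27.9 and HIST1H4L from 20.6 to 64.2 FPKM.

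With mAKT alone the histone levels were lower than with vector, by less than the ERG difference. The count below vector was 54 of 58, a count that was not made for all genes. Only HIST1H4F was past 2-fold lower and 0 were past 2-fold higher, against 1.35% and 1.60% of 12265 genes. The median log2 ratio was −0.52 for the histones and 0.02 for all genes. H3 genes had the lowest median of the types, −0.62. Without a pseudocount all 11 H3 genes lay between −0.87 and −0.58. The 4 genes above vector were HIST1H2BE, HIST1H1A, HIST2H2BC and HIST2H2BE. HIST1H2BE, an H2B gene, stood apart from the others: it had 2.89, 6.70, 5.58 and 9.55 FPKM, lowest with vector and highest with both transgenes. It was the single gene past 2-fold higher in RWPE1-ERG+mAKT than in RWPE1-Vector, and the single gene that was higher with both transgenes than with ERG alone.

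Where ERG and mAKT were combined, the levels lay closer to vector. In RWPE1-ERG+mAKT over RWPE1-Vector, 48 of 58 genes were higher, 1 was past 2-fold higher and 0 past 2-fold lower, against 4.11% and 1.99% of 12399 genes, and the median log2 ratio was 0.27. Of all genes at 1 FPKM or more in any line, 60.0% were below vector, against 10 of these 58. Adding mAKT to ERG was compared next, in RWPE1-ERG+mAKT over RWPE1-ERG. The histones were past 2-fold lower for 42 of 58 genes and past 2-fold higher for 0, where 3.83% and 3.16% of 12444 genes were, and the median log2 ratio was −1.11. Adding ERG to mAKT gave 19 of 58 past 2-fold higher and 0 lower, against 3.08% and 1.38% of 12351 genes, with a median of 0.82. The lines with 1 transgene each differed most: RWPE1-ERG was past 2-fold above RWPE1-mAKT in 54 of 58, against 5.14% of 12416 genes, and 0 were past 2-fold lower, against 2.50%. These comparisons share lines, so they are not independent of each other.

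The ratio of the lines with and without ERG was smaller in the presence of mAKT for 57 of the 58 genes, against 58.2% of the 12458 genes of the table above 0 in all lines. The exception was HIST1H4F, with log2 ratios of 2.29 without and 2.61 with mAKT. The ratio was past 2-fold in both settings for 19 genes. Neither this count nor the next was made for all genes. For 6 genes ERG+mAKT was below mAKT. They were HIST1H2BK, HIST1H1C, HIST1H2AC, HIST2H2BE, HIST3H2A and HIST2H2BC, with log2 ratios of −0.41, −0.03, −0.14, −0.22, −0.03 and −0.10. The first 4 were past 2-fold higher with ERG alone. No gene moved past 1.5-fold in opposite directions. With 1 pooled value per line the difference between the 2 ratios was not tested.

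**Figure D2:**
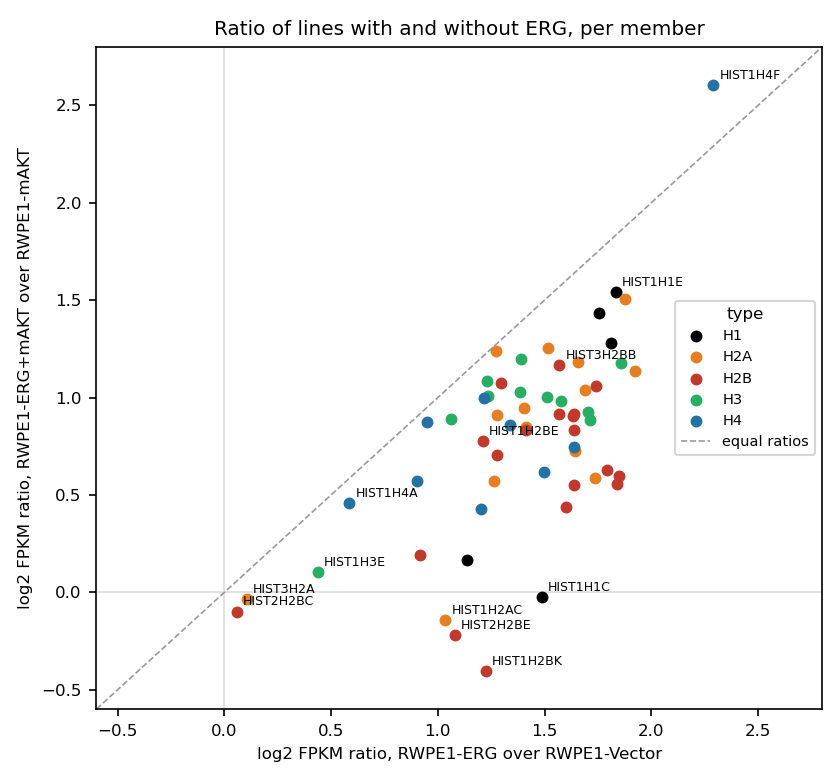
Log2 FPKM ratio of RWPE1-ERG over RWPE1-Vector (horizontal) against RWPE1-ERG+mAKT over RWPE1-mAKT (vertical) for the 58 clustered histone genes, coloured by type; the dashed line marks equal ratios. HIST1H4F alone lies above the line, and HIST1H2BK, HIST1H1C, HIST1H2AC, HIST2H2BE, HIST3H2A and HIST2H2BC lie below 0 on the vertical axis.

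The position of the genes was examined next. Genes closer than 200 kb to each other were taken as 1 block, which gave 4 blocks on chromosome 6, in the coordinates of the table (hg19). The block at chr6:25726290-25733089 holds 3 genes, none of which reached 1 FPKM. The block at chr6:26017259-26285727 holds 32 genes, of which 30 reached 1 FPKM and 26 were past 2-fold higher in RWPE1-ERG than in vector, with a median log2(FPKM + 1) ratio of 1.36. In the block at chr6:27100094-27115341 4 of 4 expressed genes were past 2-fold, with a median of 1.40, and at chr6:27775256-27861669 it was 14 of 14, with a median of 1.63. In RWPE1-ERG+mAKT over vector the last block had all 14 genes above vector with a sum 1.32 times that of vector. The block that holds HIST1H2BK had a sum of 0.784 times. In it HIST1H2BK went from 147 to 99.3 FPKM and HIST1H2BJ from 26.3 to 22.9. HIST1H2AG rose from 15.2 to 19.5 and HIST1H2AH from 12.6 to 15.9, so this sum mostly follows HIST1H2BK. The HIST2 block at chr1:149754244-149859466 had 5 of 6 expressed genes past 2-fold with ERG alone, and a median of 1.17.

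**Figure D3:**
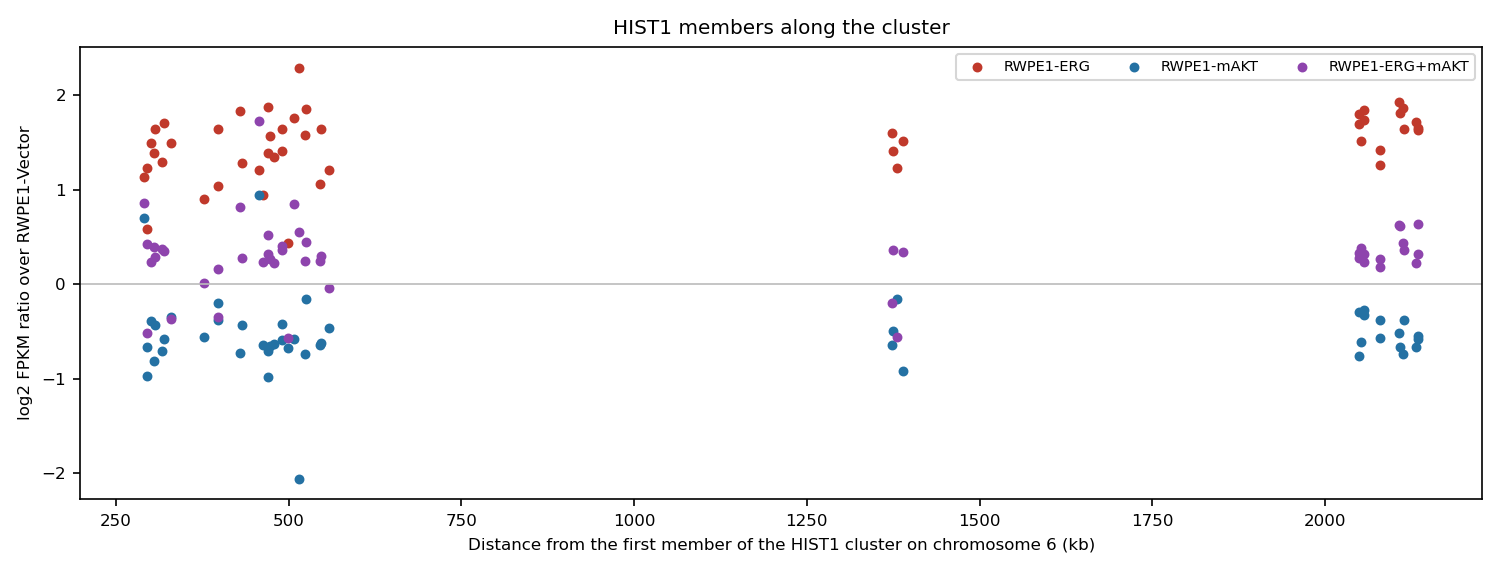
Log2 FPKM ratio over RWPE1-Vector of the expressed HIST1 genes, by distance in kb from the first gene of the cluster on chromosome 6; red is RWPE1-ERG, blue RWPE1-mAKT and purple RWPE1-ERG+mAKT. Red points lie above 0 in all 3 blocks shown, and the lowest blue point is HIST1H4F at −2.05.

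Many H2A and H2B genes face away from each other over 1 shared promoter region. There were 11 such H2A and H2B pairs, with 194 to 289 bases between the starts, and in 9 of them both genes reached 1 FPKM. Within these 9 the log2 ratios of ERG over vector differed by a median of 0.19. The largest difference, 1.46, was that of HIST3H2A and HIST3H2BB, whose starts are 230 bases apart. HIST3H2BB had 5.42, 16.1, 4.57 and 10.3 FPKM, and HIST3H2A, as given above, stayed between 17.4 and 20.5. The next largest difference was 0.60, between HIST1H2BC, at 34.1 and 106 FPKM in vector and ERG, and HIST1H2AC, at 50.3 and 103. Whether the libraries or the counting kept strand is not given in the sources used here, and without strand reads of overlapping transcripts cannot be told apart.

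Promoters of 63 of the genes were taken from RefSeq (GRCh38.p14), 250 bases before to 50 after the start, with the first listed start of each gene. They were searched on both strands for the CCAAT box, the TATA box TATAAA, the octamer ATTTGCAT bound by POU2F1, the ETS core CCGGAA and the AP-1 site TGACTCA. The CCAAT box was present in 84.1% of the histone promoters and in 35.7% of all 27305 RefSeq promoters. It was in every promoter of the H1, H2A, H2B and H3 genes and in 3 of 13 promoters of H4 genes. TATAAA was present in 66.7% against 12.0%. ATTTGCAT was present in 38.1% against 1.80%, in 11 of 16 H2A and 12 of 16 H2B promoters. CCGGAA was present in 14.3% against 17.6%, in 5 of 13 H4, 2 of 6 H1 and 2 of 16 H2A promoters and in 0 of the H2B and H3 promoters. TGACTCA was in 0 against 4.92%. The promoters of 3 genes are shown with their matches in capitals. That of HIST1H2BK, the gene with the highest FPKM, carries the CCAAT box, the TATA box and the octamer, that of HIST3H2BB is of the pair with the largest difference, and that of HIST4H4 is of the gene with the strongest ERK2 peak in RWPE1-Vector, described at the end.
HIST1H2BK, chr6:27146809-27147108, minus strand: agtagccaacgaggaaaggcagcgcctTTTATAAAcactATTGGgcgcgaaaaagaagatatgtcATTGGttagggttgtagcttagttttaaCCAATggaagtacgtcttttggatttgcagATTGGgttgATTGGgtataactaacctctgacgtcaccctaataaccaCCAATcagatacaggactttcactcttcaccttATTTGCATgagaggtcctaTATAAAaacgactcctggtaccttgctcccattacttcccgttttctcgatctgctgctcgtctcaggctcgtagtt
HIST3H2BB, chr1:228457853-228458152, plus strand: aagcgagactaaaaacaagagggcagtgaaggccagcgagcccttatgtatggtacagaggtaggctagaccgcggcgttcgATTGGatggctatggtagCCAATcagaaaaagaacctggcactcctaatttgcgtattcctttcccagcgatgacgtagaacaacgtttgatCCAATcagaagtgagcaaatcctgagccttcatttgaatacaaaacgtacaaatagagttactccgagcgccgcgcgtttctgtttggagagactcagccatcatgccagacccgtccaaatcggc
HIST4H4, chr12:14771082-14771381, minus strand: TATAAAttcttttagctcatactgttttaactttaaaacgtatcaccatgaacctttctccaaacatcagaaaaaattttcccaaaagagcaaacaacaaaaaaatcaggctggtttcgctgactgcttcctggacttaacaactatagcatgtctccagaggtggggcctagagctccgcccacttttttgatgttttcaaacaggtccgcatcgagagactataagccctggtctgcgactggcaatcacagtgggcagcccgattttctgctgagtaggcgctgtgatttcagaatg

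HIST1H2BK has several CCAAT boxes, counted over both strands, with the octamer and a TATA box between them and the start. HIST3H2BB has CCAAT boxes and no match to the octamer or to TATAAA. In HIST4H4 the only match is TATAAA at the far end of the window. A match is a match of letters and says nothing of what is bound.

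Genes that act with the clustered histones were set beside them, as lists named for their function. Replacement histones had 0 of 11 expressed genes past 2-fold in RWPE1-ERG over vector and a median log2 ratio of 0.06. H2AFZ, the H2A.Z gene, was the highest, at 546, 628, 627 and 540 FPKM, and H3F3B, an H3.3 gene, had 225, 218, 209 and 175. H3F3A, the other H3.3 gene, was past 2-fold higher in RWPE1-mAKT than in the other lines, at 20.5, 34.3, 105 and 18.9. The list of histone transcription and 3′ end processing factors had 0 of 26 genes past 2-fold in any pair of lines. The genes named from it were chosen for their role after their values were seen. SLBP had 33.8, 24.9, 33.0 and 35.9 FPKM. NPAT, the coactivator of histone genes in S phase, had 6.12, 4.33, 5.51 and 5.32. The exonuclease ERI1 had 7.86, 7.65, 6.92 and 8.41, and ZNF473, a protein of the histone pre-mRNA processing complex, had 5.94, 5.53, 5.47 and 5.51. Histone chaperones had 0 of 10 genes past 2-fold, with a median of 0.01 in RWPE1-ERG over vector. DNA replication and S phase genes had 0 of 23, with a median of −0.09. PCNA, the replication clamp, had 155, 129, 156 and 154 FPKM, while CCNA2, which encodes cyclin A, had 66.2, 65.2, 71.5 and 58.1 and MKI67, a marker of cycling cells, had 24.2, 24.9, 34.2 and 23.9, both chosen for their role. Housekeeping genes had 0 of 10 past 2-fold and a median of 0.13. In bulk RNA, more cells in S phase and more RNA per cell cannot be told apart.

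Among the other lists, 3 of the 4 luminal markers at 1 FPKM or more, the keratins KRT8, KRT18 and KRT19, were past 2-fold higher in RWPE1-ERG than in vector, with a median log2 ratio of 1.28 over the 4. The list of non-coding RNAs known to lack a poly(A) tail was higher as well. Of its 29 names, 17 had a row in the table, and 13 of the 17 were past 2-fold higher in RWPE1-ERG than in vector, with a median log2 ratio of 1.18. RMRP, the RNA of RNase MRP, had 3521, 7769, 1563 and 3077 FPKM. RPPH1, the RNA of RNase P, had 1467, 3092, 471 and 1515. Both were highest in RWPE1-ERG and lowest in RWPE1-mAKT. SNORA73B had 2912, 9546, 2588 and 4488, and SCARNA2 had 60.9, 168, 32.7 and 100. The minor spliceosome RNA RNU12 had 15.3, 40.2, 19.8 and 29.8. VTRNA1-2 went the other way, at 38.9 in RWPE1-Vector and listed at 0 in RWPE1-ERG. In RWPE1-ERG+mAKT over RWPE1-mAKT 7 of the 17 were past 2-fold higher and 0 lower, and in RWPE1-mAKT over vector the median was −0.17 with 2 higher and 3 lower. RWPE1-ERG was the highest line for 12 of the 17, RWPE1-mAKT the lowest for 8, and 4 had the full order shown by 45 of the 58 histone genes. In the lists of replacement histones, processing factors, chaperones, replication genes and housekeeping genes, 0 genes had that order. The share of RNA without a tail that passed the oligo(dT) selection in each line is not given in the sources used here, and its part in the histone differences was not tested.

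**Figure D4:**
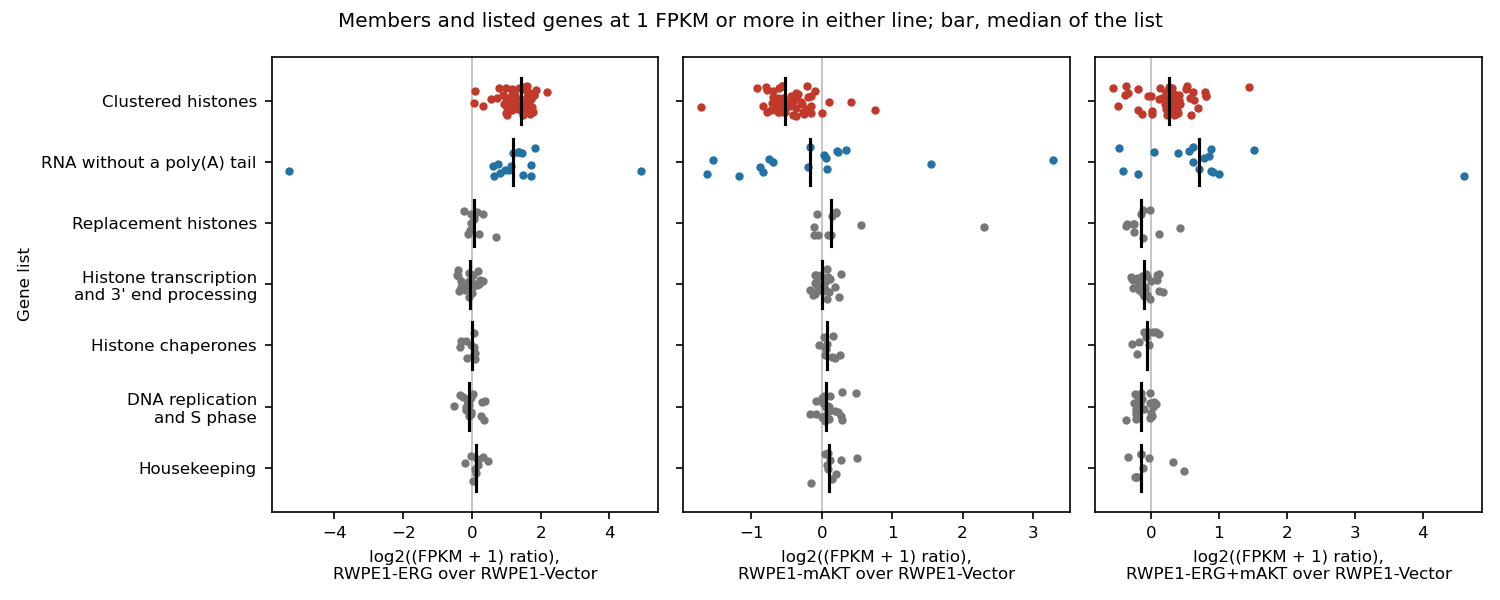
Log2 ratio of FPKM + 1 over RWPE1-Vector in the lines with ERG, with mAKT and with both for the clustered histones (red), RNAs without a poly(A) tail (blue) and 5 other gene lists (grey); points are genes at 1 FPKM or more in either line and bars are medians. In RWPE1-ERG the histone median is 1.43 and that of the tailless RNAs 1.18, while the grey medians lie between −0.09 and 0.13.

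Length was another property shared with the small RNAs. Of the 58 expressed histone genes, 43 have a locus of up to 500 bases in the table. Of the 67 other expressed genes of this length, most of them small RNA genes, 35 were past 2-fold higher in RWPE1-ERG and 13 past 2-fold lower, with a median log2 ratio of 1.08. When genes whose names mark a microRNA, snoRNA, scaRNA, snRNA or another small RNA were left out, 8 remained, of which 2 were higher and 2 lower. Of 36 such genes with a locus over 500 and up to 1000 bases, 7 were past 2-fold higher and 0 lower, and of 10899 over 5000 bases, 2.92% were higher. The 4 histone genes with a locus over 5000 bases had a median of 1.24, and 3 of them were past 2-fold higher. HIST1H2BK is among the 4, with a locus shared with HIST1H4I and a coding sequence of 378 bases. Whether its own model spans that locus was not determined. A shared locus need not be the length of each gene in it. The part of length in the differences was not tested.

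A polyadenylation signal, either AATAAA or the variant hexamer ATTAAA, was present within 2000 bases after the stem-loop in 59 of the 64 genes, and within 500 bases in 24. Of the windows after the stop codon of other coding genes, 90.1% held a signal within 2000 bases and 53.6% within 500. The nearest lay 12 bases after the stem-loop, in HIST1H1C and HIST1H2BD, and the median distance was 634 bases. Genes with a signal within 500 bases had a median FPKM of 23.0 in RWPE1-Vector and 63.5 in RWPE1-ERG, with 20 expressed genes. The 26 with a signal at 500 to 2000 bases had 17.1 and 55.3, and the 4 with none within 2000 bases had 15.1 and 38.4. The median log2(FPKM + 1) ratios of ERG over vector were 1.47, 1.39 and 1.26 in these groups. Of the genes whose model end could be compared, HIST2H2BF, HIST2H2BE and HIST1H2BD run past the stem-loop by over 100 bases. These 3 had a median ratio of 1.26 on this scale, against 1.43 for the 44 that end within 100 bases of it. The ends of HIST1H2BK, HIST1H2AD and HIST1H3D, whose loci are shared with other genes, were not compared.

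The 15 genes below 1 FPKM in every line include a set of identical copies. Of these genes, 8 share their coding sequence with another gene of the 73, in the pairs HIST2H2AA3 and HIST2H2AA4, HIST2H3A and HIST2H3C, HIST2H4A and HIST2H4B, and HIST1H4J and HIST1H4K. None of the 8 reached 1 FPKM, with a highest value of 0.885 for HIST1H4K, and how the authors counted fragments that fit more than 1 gene is not given in the sources used here. These levels are uncertain. Others are known from testis. HIST1H1T, the testis linker histone, lay between 0.0567 and 0.113 FPKM, HIST1H2BA, a testis H2B, was listed at 0 in RWPE1-Vector and RWPE1-ERG, and HIST3H3, a testis H3, was listed at 0 in 3 lines. HIST1H4I shares its locus in the table with HIST1H2BK and had 0.558, 0.617, 0.445 and 0.251 FPKM. Across all 73, 5 were listed at 0 in each line.

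Peak lists give another readout of the same genes, without RNA selection. The ATAC-seq lines carry both vectors as above, and the vector, ERG and S96E lines of the H3K27me3 and ERK2 ChIP list pQCXIH constructs alone. Each list comes from 1 library, and 70 histone gene starts could be placed in hg19. A start counted as marked where a peak overlapped 1000 bases to either side by at least 1 base. The lists reach down to unlike limits. The lowest −log10 p-value given by MACS2 was 1.00 in the H3K27me3 list of RWPE1-Vector and 2.01 in its ERK2 list. It was 3.03 in the ERG ChIP list and 3.96 in the ATAC-seq list of RWPE1-ERG. Shares are therefore set beside all genes of the same list and not beside other marks. In the ATAC-seq lists, which mark open chromatin, 62 of 70 histone starts had a peak in RWPE1-ERG (88.6%, 95% Wilson interval 79.0 to 94.1%), 63 in RWPE1+mAKT and 62 in RWPE1-ERG+mAKT. The shares of all 23183 matched genes were 60.7%, 59.6% and 55.5%. Of the 55 expressed histone genes that could be placed, 54, 55 and 54 had a peak. Of the genes of the table at 1 FPKM or more, 90.9%, 90.6% and 87.4% did. With nearly every expressed start marked, these shares cannot show a difference between lines. The median fold enrichment at the marked histone starts was 5.25 in RWPE1-ERG, 4.41 in RWPE1+mAKT and 4.49 in RWPE1-ERG+mAKT, and at the marked starts of all genes it was 7.37, 5.98 and 6.13. Intervals cover counting error only, and neighbouring starts share peaks: the 62 starts in RWPE1-ERG had 43 distinct peaks.

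The repressive mark H3K27me3 was called at 5 of 70 starts in RWPE1-Vector (7.14%, 3.09 to 15.7%) against 26.7% of all genes, at 3 in RWPE1-ERG against 18.0%, and at 4 in cells with the phosphomimetic ERG S96E against 25.8%. Of the 55 expressed histone genes 2 had a peak in RWPE1-Vector (3.64%, 1.00 to 12.3%), HIST1H1D and HIST2H3D, against 8.74% of all expressed genes, which lies within that interval. In RWPE1-ERG and with S96E 0 of the 55 had one, an interval of 0 to 6.53%, against 3.22% and 7.13% of all expressed genes. At 20 FPKM or more in any line the share in RWPE1-Vector was 2 of 41 histone genes (4.88%, 1.35 to 16.1%) against 5.90% of all genes. The testis gene HIST1H2BA and the pseudogene HIST1H2APS1 were marked in each of the 3 lists. None of the peaks reached a q-value of 0.01, a limit met at 2 and 18 of all 23183 starts in RWPE1-Vector and RWPE1-ERG and at 9.08% with S96E. ERG itself, in the ChIP of RWPE1-ERG+mAKT, had a peak at 3 of 70 starts, those of the H4 genes HIST1H4L, HIST1H4C and HIST4H4, with fold enrichments of 5.65, 3.52 and 2.94. The share of 4.29% had an interval of 1.47 to 11.9% and all genes had 1.27%. Of the expressed genes 3 of 55 histones had one (5.45%, 1.87 to 14.9%), an interval that holds the 1.89% of all expressed genes. ERG peaks in RWPE1-ERG cells were not analysed here.

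ERK2, a kinase of the MAP kinase pathway, had a peak at 55 of 70 histone starts in RWPE1-Vector (78.6%, 67.6 to 86.6%) and at 45 in RWPE1-ERG (64.3%, 52.6 to 74.5%). The same starts were scored in both lines, so these separate intervals do not measure the difference between the lines. Of all genes, 8.98% and 5.28% had one. Of the 1125 genes at 100 FPKM or more, 25.1% had a peak in RWPE1-Vector and 20.0% in RWPE1-ERG. At 20 FPKM or more the shares in RWPE1-Vector were 38 of 41 for the histones and 18.0% for all 4493 genes. Both lists marked 41 histone starts, RWPE1-Vector alone 14 and RWPE1-ERG alone 4. This split was not made for all genes, of which 2081 starts were marked in RWPE1-Vector and 1224 in RWPE1-ERG. All types were marked, from 4 of 6 H1 to 16 of 18 H2A starts in RWPE1-Vector. By cluster, 42 of 53 HIST1 and 10 of 13 HIST2 starts were marked in RWPE1-Vector, and 32 and 12 in RWPE1-ERG. With a q-value of 0.01 or below 18 histone starts remained in RWPE1-Vector, of 75 starts in the table, and 5 of 52 in RWPE1-ERG. Of the histone genes below 1 FPKM, 8 of 15 starts had a peak in RWPE1-Vector and 7 in RWPE1-ERG. The 8 are the genes with an identical copy, whose FPKM is uncertain as said above, and the 7 are the same without HIST1H4J. How ChIP reads that fit both copies of a pair were placed is not given in the sources used here. The other genes below 1 FPKM, among them HIST1H1T, HIST1H2BA and HIST3H3, had no ERK2 peak in either line. Of other lists, 2 of 15 replacement histones, 3 of 23 replication genes, 3 of 12 placed RNAs without a tail and 4 of 9 housekeeping genes had a peak in RWPE1-Vector.

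The peaks were modest in height. Fold enrichment over the local background at the histone starts had a median of 4.31 in RWPE1-Vector, from 2.41 to 7.39, against 3.42 at the starts of all genes with a peak and 38.7 at the highest peak of the list. In RWPE1-ERG it had a median of 4.28, from 2.86 to 7.57, against 3.69 and 60.9. The strongest in RWPE1-Vector covered HIST4H4, at chr12:14923645-14924273 (hg19) with a fold enrichment of 7.39. In RWPE1-ERG it covered HIST2H4A, at chr1:149832375-149832958 with 7.57, and the HIST4H4 peak had 4.86. HIST2H4A shares its coding sequence with HIST2H4B, whose peak had 3.70, so the height at either copy is uncertain. The 55 starts in RWPE1-Vector had 41 distinct peaks, and 28 had the peak centre within 500 bases. The lists differ in size, with 41276 peaks in RWPE1-Vector and 5721 in RWPE1-ERG, and in reads, so the difference between the lines in the number of marked starts was not tested.

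**Figure D5:**
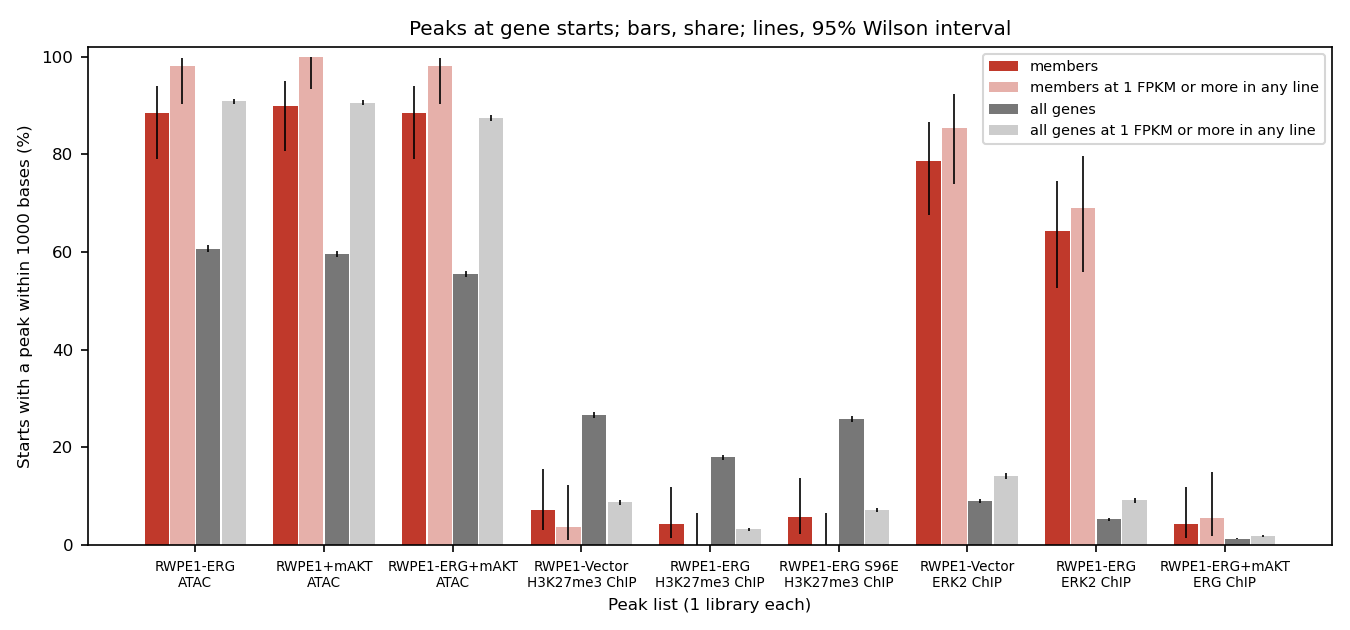
Share of gene starts with a peak within 1000 bases, in percent, for 9 peak lists of 1 library each; red bars are the 70 clustered histone starts and the 55 of them that are expressed, grey bars all genes and all expressed genes, and lines are 95% Wilson intervals. The ERK2 bars reach 78.6% and 64.3% for the histones against 8.98% and 5.28% for all genes, and the H3K27me3 bars are below those of all genes.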

How the data were processed

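RNA from 4 RWPE1 lines was poly(A)-selected, reverse transcribed with random hexamers and sequenced. Per the methods, the authors aligned reads with TopHat2 and ran Cuffdiff on hg19. They deposited FPKM values per pair of lines, each pooled over 3 libraries, beside fold changes, test statistics, p-values and q-values, which are the study's findings and were not used. For ChIP-seq and ATAC-seq the authors deposited MACS2 peak lists in hg19, made with Bowtie2 alignment and 1 library per line. By the paper's account, each ChIP library combined material of 3 independent experiments. The paper also reports a second ERG ChIP-seq of RWPE1-ERG+mAKT, which was not used here. The deposited lists give a pileup signal, a ratio (fold enrichment over the local background), and −log10 p-values and −log10 q-values, all computed by the authors with MACS2. Peaks labelled for VCaP cells, or whose header went against the label, were not used.

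From these values ratios, counts past 2-fold at 1 FPKM or more in the higher line, and medians of log2(FPKM + 1) ratios were computed. Single genes have no pseudocount. No test was run, since no line has more than 1 value. GENCODE release 44 mapped to GRCh37 gave gene models, with 23183 gene rows and 70 histone genes matched, 5 of them by position. HIST1H2BF, HIST1H2BG and HIST1H4F were not matched. The stem-loop was defined as 6 paired bases (A-T, G-C or G-T) starting GG and ending CC around a loop of 4 bases starting TT. Genes named are histone genes at 5 FPKM or more, the highest of each type and cluster, the largest ratios, and listed genes past 2-fold or among the highest of their list, with others said to be so in the text. The histone genes and all lists were chosen with earlier results of these data known. Scripts were tested on simulated data. The software was Python (3.11.15) with pandas (2.3.3), numpy (2.4.6) and scipy (1.17.1), and matplotlib (3.10.9) for plots.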

Additional observations from a re-analysis of the deposited data

How the results depend on the processing

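Of 107 recomputed values of 31 results, 88 stayed within 1.5 times the main count or ratio, or within its 95% interval, and no median log2 ratio changed sign. The pairs RWPE1-ERG over vector, RWPE1-ERG+mAKT over RWPE1-ERG and RWPE1-ERG over RWPE1-mAKT had no value that moved. At 1.5-fold in place of 2-fold, the genes past the limit were 28 for RWPE1-mAKT over vector, of which 26 were lower, 10 for RWPE1-ERG+mAKT over vector and 42 for RWPE1-ERG+mAKT over RWPE1-mAKT. The shares of all genes past 1.5-fold were not computed. The counts that follow are again at 2-fold. With a minimum of 0.5 FPKM they were 2 for RWPE1-mAKT over vector and 3 for RWPE1-ERG+mAKT over vector, of which 2 were lower, where the main count was 1 higher and 0 lower. Centring on the median of all genes gave 2 for RWPE1-mAKT over vector, and medians of 0.34 for RWPE1-ERG+mAKT over vector and 0.90 over RWPE1-mAKT. A pseudocount of 0.1 gave a median of −0.57 for RWPE1-mAKT over vector. The share of stem-loop genes with a polyadenylation signal was 37.5% within 500 bases. At a q-value of 0.01 or below, histone starts with a peak were 0 in each of the 3 H3K27me3 lists, 18 and 5 in the ERK2 lists of RWPE1-Vector and RWPE1-ERG, and 1 in the ERG list. Within 5000 bases they were 19 and 6 for H3K27me3 in RWPE1-Vector and RWPE1-ERG, and 5 for ERG, of 70 each, against 65.1%, 33.2% and 5.04% of all genes. The cause of these shifts was not tested, apart from the stricter limits keeping fewer peaks and wider windows more.

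No paired analysis was possible because the table holds 1 pooled value per line. No library was left out for the same reason, and the spread between libraries is unknown. RNA depth is not given in the files, so the precision of values near 0 is unknown. The ChIP peak lists come from single libraries with 8393459 to 26454542 reads.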
